A study of Caenorhabditis elegans with 15 samples.

Results

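The genes described here are the acyl-CoA synthetases and the enzymes of fatty acid oxidation of *Caenorhabditis elegans*: every gene whose WormBase symbol begins with acs-, acdh-, acox-, ech-, hacd- or cpt-, together with daf-22, dhs-28 and maoc-1, whose counts over the 15 samples came to 10 or more. All 62 genes with such a symbol met this limit, out of 46778 genes in the count table and 19595 genes with a total of 10 or more. They comprised 22 acs, 13 acdh, 7 acox, 10 ech, 6 cpt genes, hacd-1, and the 3 genes daf-22, dhs-28 and maoc-1, all protein coding and spread over the 6 chromosomes.

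RNA was sequenced from whole worms of the wild-type N2 strain in 3 groups of 5 samples: Control without particles (samples 1 to 5), silver nanoparticles (Ag, samples 6 to 10) and silicon dioxide nanoparticles (SiO2, samples 11 to 15), both at 10 µg/ml. In every group, 350 to 400 first-stage (L1) larvae per well, fed *Escherichia coli* OP50, were grown for 72 h at 21 °C to the first day of adulthood. The study's methods and its discussion have the larvae growing up in the particles, from L1 to the first day of adulthood. The sample labels instead place the incubation at the adult stage. The question was how each particle type alters gene expression in the worm. A sample is the pooled RNA of a well of whole animals, and in such a sample fewer cells of a type and less RNA per cell cannot be told apart. The worms of a sample were grown in a well of their own, but whether the wells shared a starting batch of larvae is not stated, and the p-values measure the spread between these wells.

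Fatty acids enter metabolism as coenzyme A thioesters, which acyl-CoA synthetases (acs genes) make. Carnitine palmitoyltransferases (cpt) carry long acyl chains into mitochondria, where acyl-CoA dehydrogenases (acdh), enoyl-CoA hydratases (ech), 3-hydroxyacyl-CoA dehydrogenases (hacd) and thiolases shorten them in a repeated cycle. In peroxisomes acyl-CoA oxidases (acox) take the first step, and in *C. elegans* a peroxisomal set of acox enzymes, MAOC-1, DHS-28 and the thiolase DAF-22 also trims the side chains of ascarosides, the worm's pheromones. Expression of part of this system in the worm follows food, through the nuclear receptor NHR-49, and vitamin B12, through NHR-10 and NHR-68.

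The libraries held 16560734 to 24296570 counts, so that a level of 1 CPM (1 count per 1000000 counts of library, with library sizes scaled by the trimmed mean of M-values, TMM) stood for about 20 reads. Yolk protein (vitellogenin) genes, made by the adult hermaphrodite intestine, summed to 48756 to 68086 CPM in every sample. Markers of intestine, muscle, neurons, cuticle, germ line and oocytes were all detected in at least 1 sample. Of the adult cuticle markers, col-19 was at 449 to 765 CPM, whereas col-7 did not exceed 1.15 CPM. Ag 8 and SiO2 14 stood apart from the rest of their groups, with a root mean square log2 deviation of 0.446 and 0.374 over 14287 genes against 0.172 to 0.307 in the other samples. Ag 8 was the highest Ag sample for 26 of the 62 genes and the lowest for 8, and SiO2 14 the highest SiO2 sample for 23 and the lowest for 17.

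Mean levels of the 62 genes in Control ranged from 0.0614 to 198 CPM per kilobase of exon. On this scale hacd-1 (198 ± 68.7 CPM per kb, SD, n = 5), a 3-hydroxyacyl-CoA dehydrogenase, and acs-19 (189.6 ± 88.6), an acetyl-CoA synthetase, were the highest in Control, and their spreads overlapped. The peroxisomal dehydrogenase dhs-28 (99.8 ± 10.1), the hydratase ech-7 (96.1 ± 35.5), the medium-chain acyl-CoA dehydrogenase acdh-10 (93.7 ± 12.5), ech-6 (87.9 ± 8.13), the carnitine palmitoyltransferase cpt-1 (85.8 ± 13.2) and ech-1.2 (84.1 ± 10.2), which encodes an alpha subunit of the mitochondrial trifunctional protein, lay close together in the upper part of the order and did not differ beyond their spread. At the other end, acdh-2 stood at 0.143 ± 0.0534 CPM per kb and acs-15 at 0.180 ± 0.0710, and 12 of the 62 genes averaged under 5 CPM over all samples. In Ag, acs-2 rose in this order to 209 ± 104 CPM per kb, from 40.9 ± 9.37 in Control, while hacd-1 (489 ± 95.9) and acs-19 (476 ± 148) remained the highest.

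**Figure D1:**
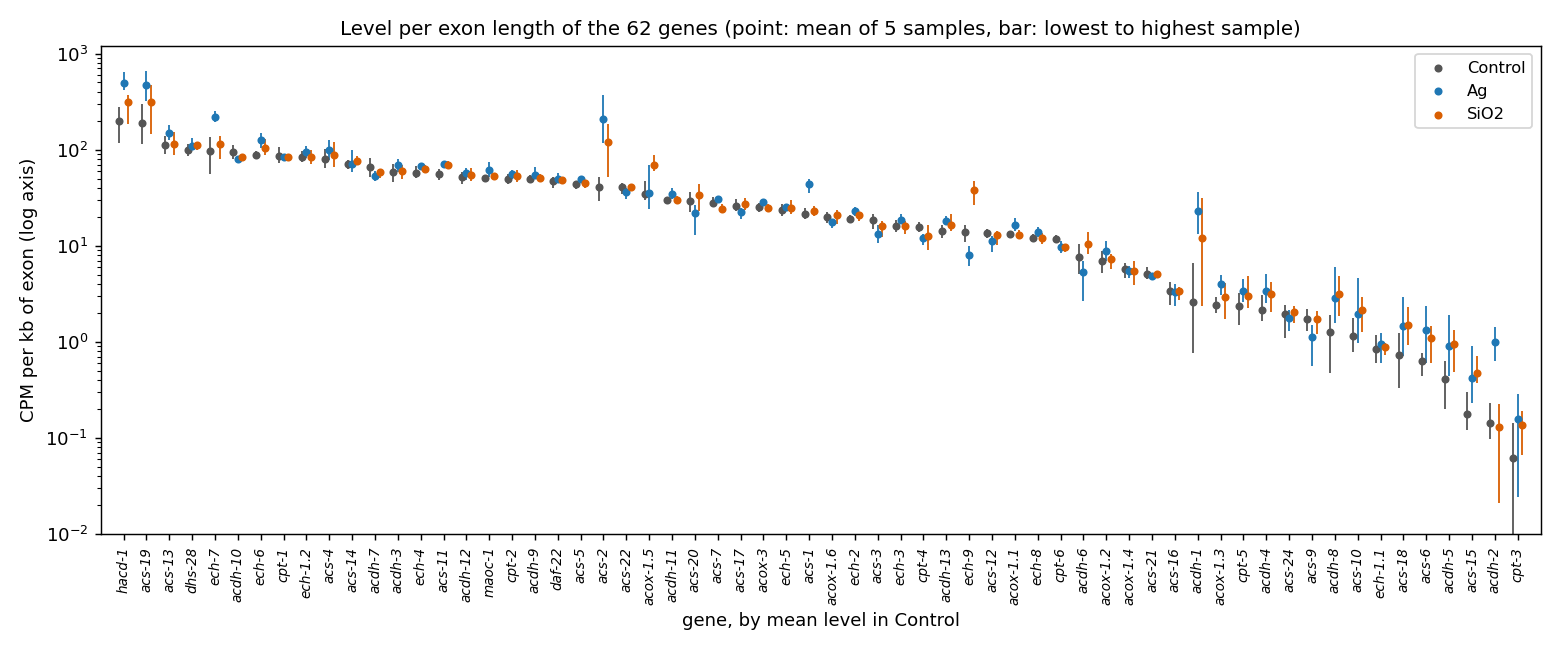
Mean level per kilobase of exon (CPM per kb, log axis cut at 0.01) of the 62 genes in Control, Ag and SiO2, ordered by the Control mean, with bars from the lowest to the highest of 5 samples. hacd-1 and acs-19 head the order in every group, and acdh-1, acdh-2 and acs-2 are the genes whose Ag points lie farthest above their Control points.

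The spread between samples of a group differed between genes. Among the 50 genes averaging 5 CPM or more, the median coefficient of variation was 12.2% in Control, 12.0% in Ag and 11.8% in SiO2. It was above 30% in Control for acdh-1 (95.4%), acs-19 (46.7%), ech-7 (37.0%) and hacd-1 (34.7%), and for these 4 genes Control 1 and Control 5 were the highest of the 5 Control samples. For the other 5 genes raised by Ag, described next, these samples were not the highest pair.

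In Ag samples 9 of the 62 genes were higher than in Control and 3 were lower (edgeR quasi-likelihood test, Benjamini-Hochberg adjusted p under 0.05 over 20669 genes, the test meant below by called and by edgeR adjusted p). The higher share, 14.5%, stood beside 4.35% of all genes tested, and the lower share, 4.84%, beside 3.41%. The 62 genes were chosen with earlier results of these data known, so these shares are not a test of the set. All but 3 of the 62 averaged 1 CPM or more, as did only 14287 genes of the whole series. The background shares here and below thus include many genes of lower level. The median log2 fold change of the 62 genes was 0.19 with 44 of them positive, against -0.01 over all genes tested, 10207 of 20669 being positive. The higher genes were acs-2, acs-1 and acs-19 among the synthetases, acdh-1 and acdh-2 among the dehydrogenases, ech-6, ech-7, hacd-1 and acox-1.3, and the lower ones were ech-9, acs-3 and cpt-4.

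Among the synthetases the largest rise was that of acs-2, a mitochondrial acyl-CoA synthetase known to be induced by fasting through NHR-49 (genome build WBcel235, as for all positions given here, chromosome V, 15567394 to 15569897). Its levels were 99.3, 60.3, 71.3, 108 and 87.3 CPM in Control 1 to 5, and 279, 246, 781, 496 and 378 CPM in Ag 6 to 10. Every Ag sample was above every Control sample, and Ag 8 was the highest of all. The log2 fold change was 2.35 ± 0.27 (SE), a 5.11-fold rise (edgeR adjusted p = 0.000388), and it was 2.04 without Ag 8 (edgeR adjusted p = 7.97e-05). The exact two-sided permutation test on CPM gave p = 0.0079, the smallest that 5 against 5 samples allow. The nhr-49 gene itself averaged 163 ± 12.4 CPM in Control against 164 ± 9.36 CPM in Ag, with a log2 difference of 0.01 ± 0.09 (edgeR adjusted p = 0.969).

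Of the other synthetases, acs-19 and acs-1 rose as well. acs-19 (chromosome III, 3864489 to 3867098) was measured at 696, 268, 312, 298 and 638 CPM in Control 1 to 5, and at 805, 756, 1554, 1350.5 and 1085 CPM in Ag 6 to 10. The groups did not overlap, although Control 1 and 5 came close to the lowest Ag samples, and the rise was 1.33 ± 0.27 on the log2 scale (edgeR adjusted p = 0.0142), or 1.17 without Ag 8, the highest sample. acs-1, which activates branched-chain fatty acids, roughly doubled from 45.2, 51.8, 55.3, 59.9 and 46.7 CPM in Control to 84.2, 97.9, 113, 118 and 115 CPM in Ag, with no overlap and a spread of 6.07 CPM (SD) in Control (log2 fold change 1.03 ± 0.12, edgeR adjusted p = 0.00037). Its exons (chromosome V, 6524989 to 6532089) share 19 bases with hpo-26 on the opposite strand, and whether the counting used strand is not stated. acs-3, which acts in the epidermis and influences lipid uptake by the intestine, was the synthetase that fell, from 39.2 ± 5.60 to 27.7 ± 4.80 CPM (log2 fold change -0.50 ± 0.13, edgeR adjusted p = 0.0378), with Ag 6 inside the Control range. The summed level of 5 cuticle genes that mark molting epidermis was 955 to 1716 CPM in Control and 460.0 to 1180 CPM in Ag, and its part in this change was not tested. Most of this sum was sqt-3, at 404 to 1637 CPM over all 15 samples, while rol-6, dpy-13 and bli-1 did not exceed 26.8 CPM. The remaining 18 acs genes did not pass the test and had log2 fold changes between -0.61 and 1.205.

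Of the acyl-CoA dehydrogenases, acdh-1 and acdh-2 had the 2 largest log2 fold changes of the 62 genes. acdh-1, whose product converts propionyl-CoA in the propionate shunt and which is known as a reporter of low vitamin B12 (chromosome I, 6497436 to 6499560), was at 11.2, 1.28, 2.26, 1.46 and 5.90 CPM in Control 1 to 5, and at 25.9, 22.1, 51.7, 60.8 and 32.8 CPM in Ag 6 to 10. Even the highest Control sample, Control 1, lay below the lowest Ag sample, and Control 2 to 4 were the lowest of all. The fold change was 8.80, or 3.14 ± 0.49 on the log2 scale (edgeR adjusted p = 0.00325), and without Control 1 it was 3.85, a 14.4-fold rise. acdh-2 (chromosome II, 5544778 to 5547492) was scarce, with 4 to 8 reads per Control sample and 21 to 52 per Ag sample. Its levels of 0.198, 0.428, 0.184, 0.301 and 0.231 CPM in Control and 2.35, 1.26, 1.99, 2.65 and 1.19 CPM in Ag did not overlap (log2 fold change 2.79 ± 0.34, edgeR adjusted p = 0.000674). It shares 87 exon bases with ins-13 on the same strand. The other 11 acdh genes did not pass the test, and acdh-10, the most abundant of the family in total CPM, had a log2 difference of -0.23 ± 0.10 (edgeR adjusted p = 0.14).

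Further along the cycle, hacd-1 rose from 282, 168, 174, 119 and 268 CPM in Control 1 to 5 to 432, 429, 655, 538 and 442 CPM in Ag 6 to 10 (log2 fold change 1.31 ± 0.20, edgeR adjusted p = 0.00332; chromosome V, 1460369 to 1461613). The hydratase ech-7 (chromosome I, 14367616 to 14369773) was at 105, 63.6, 58.8, 43.0 and 101 CPM in Control and 164, 154, 195, 177 and 149 CPM in Ag (log2 fold change 1.17 ± 0.20, edgeR adjusted p = 0.005). For both genes every Ag sample exceeded every Control sample, Control 1 and 5 being the nearest. ech-6, the mitochondrial short-chain enoyl-CoA hydratase, rose less, from 89.3 ± 8.26 to 127 ± 20.3 CPM, also without overlap (log2 fold change 0.50 ± 0.11, edgeR adjusted p = 0.0214). The trifunctional protein gene ech-1.2 had a log2 difference of 0.17 ± 0.11 (edgeR adjusted p = 0.278), and the 7 ech genes that did not pass the test lay between 0.13 and 0.27.

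ech-9 went the other way in Ag. This gene (chromosome IV, 10233310 to 10235329, minus strand) is related to the bifunctional hydratase and dehydrogenase of mammalian peroxisomes and lies 1296 bases from its paralog ech-8. It was at 20.5, 23.1, 25.6, 27.5 and 18.2 CPM in Control 1 to 5, and at 15.2, 16.5, 13.9, 10.1 and 10.1 CPM in Ag 6 to 10. All Ag samples were below all Control samples, and the log2 fold change was -0.80 ± 0.16 (edgeR adjusted p = 0.0126). ech-8 differed by 0.21 ± 0.11 (edgeR adjusted p = 0.232); it is named as the neighbour of ech-9, after its values were seen.

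Among the acyl-CoA oxidases acox-1.3 alone passed the test in Ag. Its levels were 5.01, 4.66, 4.24, 5.11 and 6.24 CPM in Control and 7.79, 6.47, 9.31, 10.5 and 8.27 CPM in Ag, without overlap (log2 fold change 0.74 ± 0.16, edgeR adjusted p = 0.0188). It stands between acox-1.2 and acox-1.4 in a run of 4 similar genes on chromosome I, acox-1.1 to acox-1.4, whose gaps are 34 to 343 bases, so reads could be shared or lost between these paralogs. Kallisto assigned acox-1.3 118.6% of the HTSeq count and acox-1.4 124.4%, against a median of 92.6% for the 62 genes, and acox-1.3 was also called with the Kallisto estimates. acox-1.1, the oxidase best known for ascaroside synthesis, was at 30.9 to 35.4 CPM in Control and 36.0 to 49.1 CPM in Ag, groups that did not overlap, but its log2 difference of 0.28 ± 0.10 did not pass the test (edgeR adjusted p = 0.0988; DESeq2 adjusted p = 0.0395).

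The 3 enzymes that follow the oxidases in ascaroside side-chain shortening showed log2 differences in Ag of 0.30 ± 0.10 for the hydratase maoc-1, 0.12 ± 0.10 for the dehydrogenase dhs-28 and 0.08 ± 0.10 for the thiolase daf-22. Their edgeR adjusted p-values were 0.0792, 0.441 and 0.59, so no member of this group was called, while DESeq2 gave an adjusted p of 0.0272 for maoc-1. maoc-1 shares 105 exon bases and dhs-28 shares 76 with a gene on the opposite strand. Of the carnitine palmitoyltransferases, cpt-1, at the entry to mitochondrial oxidation, was at 241 ± 37.1 CPM in Control and 233 ± 17.1 CPM in Ag (log2 difference -0.05 ± 0.11, edgeR adjusted p = 0.784). cpt-4 fell from 36.7 ± 3.38 to 27.95 ± 3.00 CPM (log2 fold change -0.39 ± 0.11, edgeR adjusted p = 0.0414), and the other 4 cpt genes did not pass the test.

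The calls of acs-2, acs-1, acs-19, acdh-1, acdh-2, ech-7, ech-9 and hacd-1 in Ag held in every alternative run. Leaving out Control 2 or Control 3 ended those of acox-1.3 (edgeR adjusted p 0.0544 to 0.0628) and ech-6 (0.0514 to 0.0688), the latter also without Ag 9. The call of acs-3 was lost when any of 7 samples was left out, Control 2, 3 and 4 and Ag 7, 8, 9 and 10 (0.0567 to 0.107), and that of cpt-4 without any of the same 7 or Ag 6 (0.0514 to 0.113). Without Ag 8 the 9 higher genes were all still called. The summed levels of germ line and oocyte markers were 212 to 430.4 and 705 to 1326 CPM in Control, against 401 to 669 and 997 to 1753 CPM in Ag. These ranges overlap, but the Ag medians were higher, at 475 against 299 CPM for germ line and 1329 against 972 CPM for oocytes. The part of these markers in the changes above was not tested. The summed level of the 5 intestinal markers was 1203 to 1483 CPM in Control and 1245 to 1770 CPM in Ag.

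**Figure D2:**
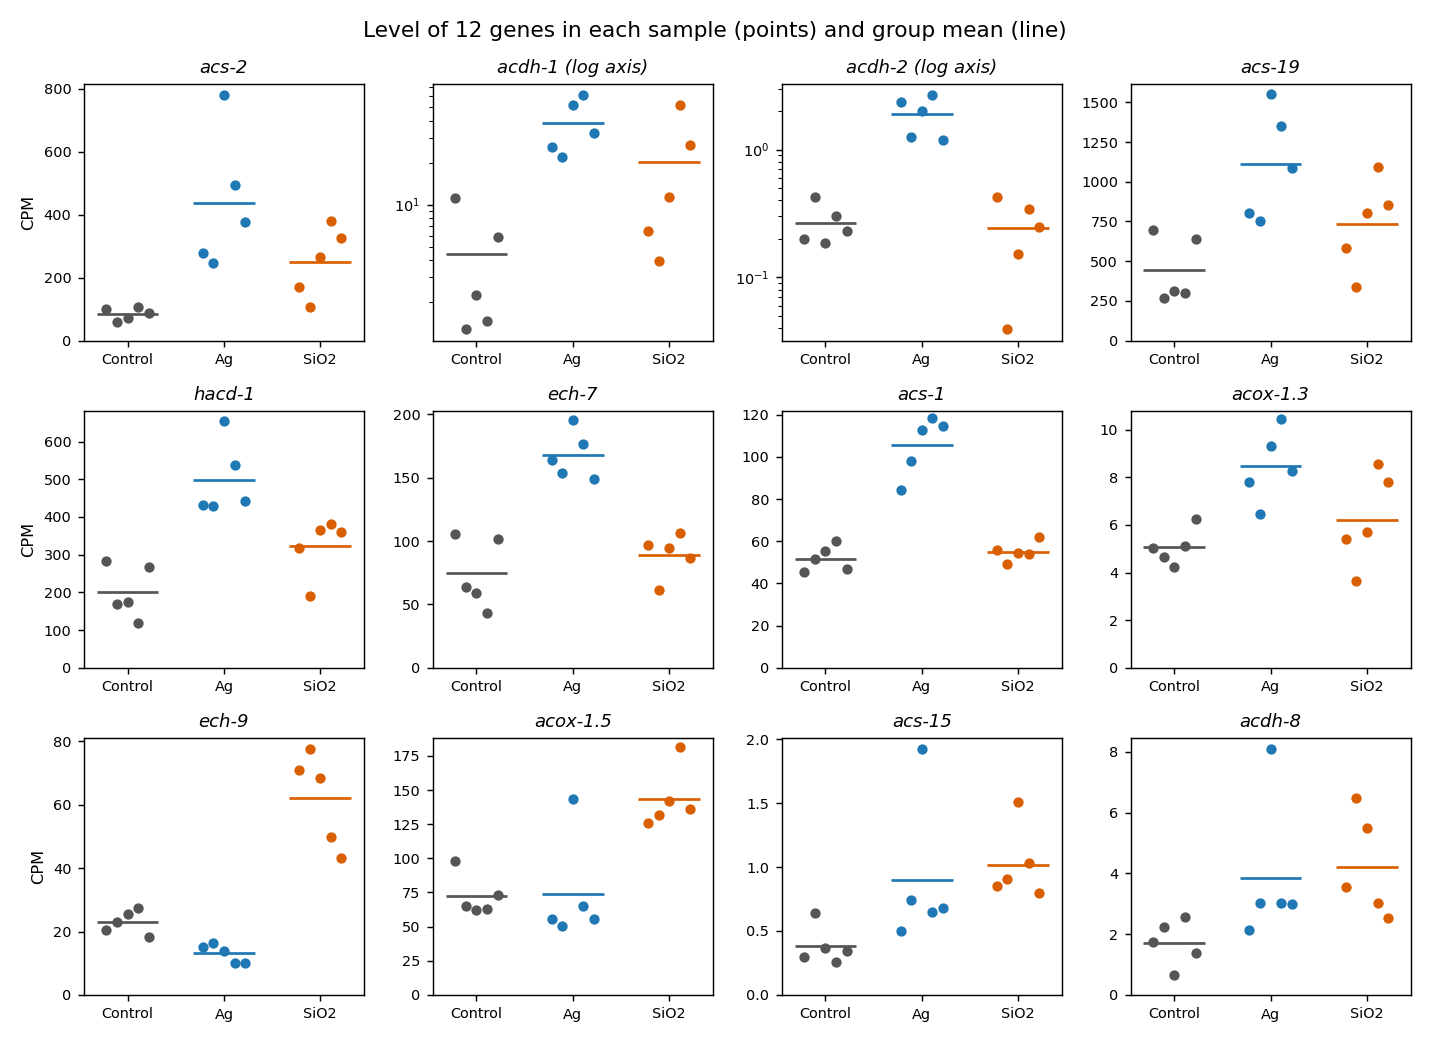
Level in CPM of 12 genes in each of the 15 samples (points, in sample order within a group) with the group mean (line), on linear axes from 0 except acdh-1 and acdh-2, which have log axes. For acs-2, acdh-1, acdh-2, acs-19, hacd-1, ech-7, acs-1 and acox-1.3 all Ag points lie above all Control points, and for ech-9 the Ag points lie below and the SiO2 points above Control.

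In SiO2 samples 5 of the 62 genes were higher than in Control and 0 were lower (edgeR quasi-likelihood test over 20739 genes). The higher share was 8.06% beside 1.91% of all genes tested, and for lower genes the background was 0.743%. At an unadjusted p under 0.05, edgeR had 16 genes higher and 2 lower, and the likelihood ratio test and DESeq2 also called 0 lower. The share of all genes at that unadjusted threshold is not given. The median log2 fold change was 0.09 with 47 genes positive, against 0.01 over all genes tested, 10934 of 20739 being positive. The genes that rose were ech-9, acs-2, acox-1.5, acs-15 and acdh-8. The Control samples are the same as in the Ag comparison, so the 2 comparisons are not independent.

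ech-9 rose in SiO2 to 71.1, 77.7, 68.4, 49.8 and 43.3 CPM in samples 11 to 15, against the Control range of 18.2 to 27.5 CPM. The lowest SiO2 sample, SiO2 15, was above the highest Control sample (log2 fold change 1.43 ± 0.16, a 2.70-fold rise, edgeR adjusted p = 0.000115; exact permutation p = 0.0079). Its neighbour ech-8 had a log2 difference of -0.02 ± 0.11 (edgeR adjusted p = 0.962). acox-1.5, an acyl-CoA oxidase gene on chromosome III, 9586618 to 9592192, was at 97.9, 65.1, 61.8, 62.6 and 73.4 CPM in Control 1 to 5, and at 126, 131, 142, 182 and 136 CPM in SiO2 11 to 15. The groups did not overlap and the level about doubled (log2 fold change 0.99 ± 0.14, edgeR adjusted p = 0.00079). In Ag 4 samples were at 50.3 to 65.2 CPM and Ag 8 was at 143 CPM, and the log2 difference from Control was 0.03 ± 0.25 with Ag 8 and -0.35 without it, not called in either case.

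acs-2 rose in SiO2 as well. Its levels were 169, 108, 265, 381 and 325 CPM, with SiO2 12 just above the highest Control sample (108.1 against 107.7 CPM) and SiO2 14 the highest (log2 fold change 1.55 ± 0.26, edgeR adjusted p = 0.00381; 1.33 without SiO2 14). acdh-1 was at 6.43, 3.95, 11.3, 52.2 and 26.8 CPM in SiO2 11 to 15, so that SiO2 11 and 12 fell inside the Control range while SiO2 14 and 15 were among the Ag values. Its 4.61-fold mean difference did not pass the test (log2 2.20 ± 0.66, edgeR adjusted p = 0.0932), although it passed the likelihood ratio test (adjusted p = 0.0213), and without SiO2 14 the fold was 2.73. Germ line markers, at 271 to 607 CPM in SiO2, were also highest in SiO2 14, and their part in these values was not tested. For hacd-1 (189 to 382 CPM) and acs-19 (337 to 1096 CPM) the log2 differences of 0.68 ± 0.22 and 0.74 ± 0.30 did not pass either (edgeR adjusted p = 0.12 and 0.24). Without SiO2 14 they were 0.60 and 0.53, and the likelihood ratio test gave hacd-1 an adjusted p of 0.0492 with all samples.

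The other called genes, acs-15 and acdh-8, were of low level. acs-15, an acyl-CoA synthetase family member, rose from 0.298, 0.642, 0.368, 0.258 and 0.347 CPM in Control to 0.850, 0.910, 1.51, 1.03 and 0.796 CPM in SiO2, which is 6 to 12 against 16 to 30 reads, without overlap (log2 fold change 1.41 ± 0.32, edgeR adjusted p = 0.0273). acdh-8, related to medium-chain acyl-CoA dehydrogenases, was at 1.74, 2.25, 0.645, 2.58 and 1.39 CPM in Control and 3.56, 6.49, 5.49, 3.03 and 2.54 CPM in SiO2, with SiO2 15 inside the Control range (log2 fold change 1.29 ± 0.33, edgeR adjusted p = 0.0448). In Ag both genes were highest in Ag 8, at 1.93 and 8.09 CPM. Their log2 differences from Control were 1.205 and 1.14 with Ag 8 and 0.75 and 0.69 without it, and neither passed the edgeR quasi-likelihood test with all samples (adjusted p = 0.0792 and 0.0711). The likelihood ratio test (adjusted p = 0.0485 and 0.0331) and DESeq2 (0.0473 and 0.0219) called both, and without Ag 6 the quasi-likelihood test called acdh-8 (0.0446). The summed level of the 31 major sperm protein (msp) genes, markers of sperm, was 55.9 to 105 CPM in Control, 82.3 to 161 CPM in the Ag samples other than Ag 8, 391 CPM in Ag 8, and 101 to 233 CPM in SiO2. Its part in the values of these genes was not tested.

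When any of 6 samples was left out, the SiO2 calls of acs-15 (Control 1, 3, 4 and 5 and SiO2 12 and 13, edgeR adjusted p 0.0567 to 0.0961) and acdh-8 (Control 1, 3 and 5 and SiO2 11, 12 and 13, 0.0577 to 0.141) were lost. The calls of ech-9, acox-1.5 and acs-2 held in every alternative, and all 5 held without SiO2 14. Without SiO2 15 the number of genes called rose to 9, and the share of all genes called in that run is not given. Among the genes not called, cpt-1 was at 233 ± 17.9 CPM, ech-1.2 at 225 ± 28.2, dhs-28 at 156 ± 9.72, daf-22 at 64.9 ± 1.16 and maoc-1 at 56.8 ± 2.80 CPM in SiO2, with log2 differences from Control between -0.05 and 0.15.

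**Figure D3:**
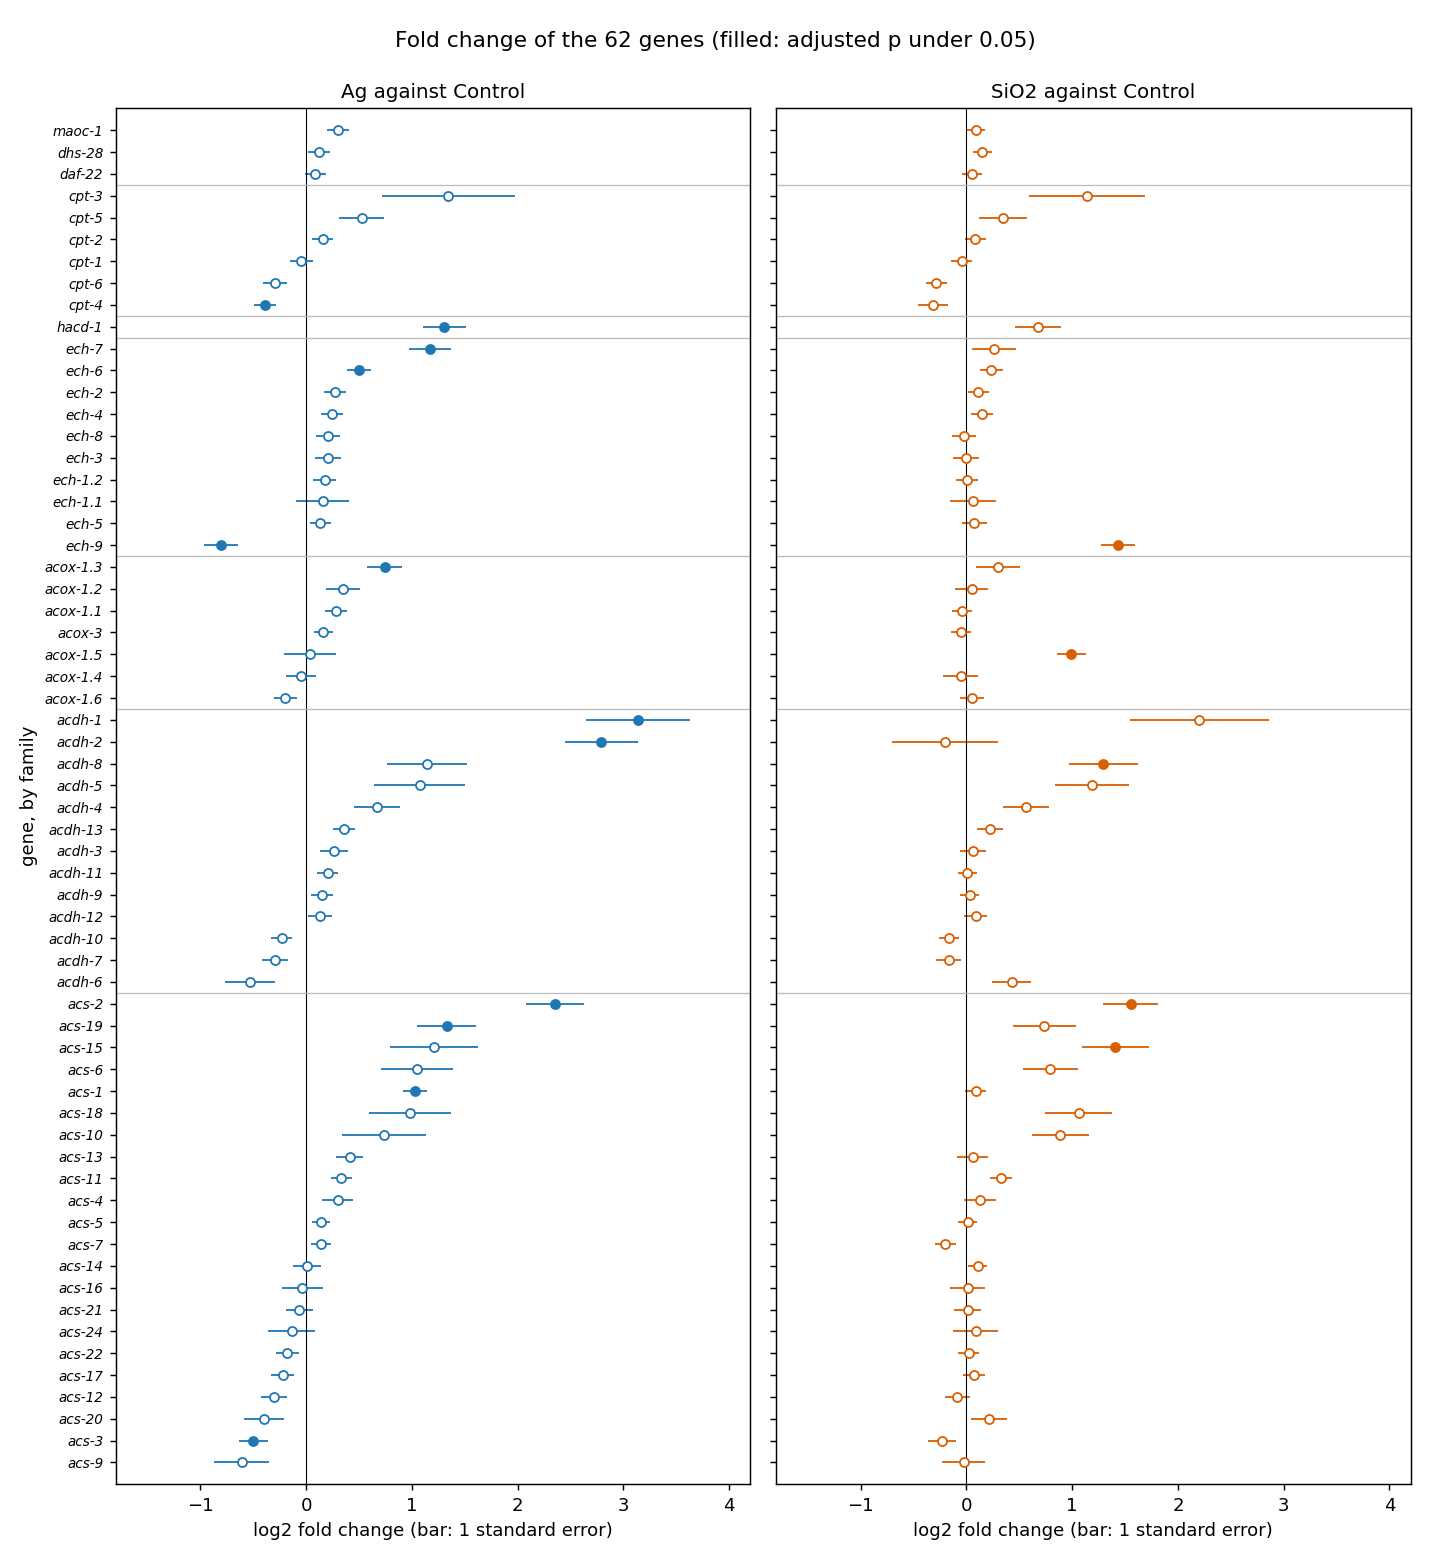
Log2 fold change against Control, with 1 standard error, of the 62 genes grouped by family, in Ag (left, blue) and SiO2 (right, orange), filled where the edgeR adjusted p was under 0.05. The 12 filled points in Ag include 9 to the right of 0, and the 5 filled points in SiO2 are all to the right, with ech-9 on opposite sides in the 2 panels.

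Compared directly, SiO2 samples were higher than Ag samples for 3 genes, ech-9, acox-1.5 and acdh-6, and lower for 4 genes, acdh-2, acs-1, ech-7 and acs-7 (edgeR quasi-likelihood test over 21180 genes, in a fit of all 15 samples). The shares of 4.84% higher and 6.45% lower stood beside 2.04% and 1.36% of all genes tested. The median log2 difference of the 62 genes was -0.08, with 25 positive, against 0.01 over all genes, 10732 of 21180 being positive. The difference was widest for acdh-2, with 0.425, 0.0395, 0.151, 0.343 and 0.249 CPM in SiO2 11 to 15 and 1.19 to 2.65 CPM in Ag (log2 difference -2.995 ± 0.40, edgeR adjusted p = 0.000221). The groups did not overlap, and SiO2 samples carried 1 to 8 acdh-2 reads each beside 4 to 8 in Control.

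For ech-9 the SiO2 samples were 4.71-fold above the Ag samples (log2 difference 2.24 ± 0.18, edgeR adjusted p = 1.34e-06), with Control between the groups. acs-1 in SiO2 was at 55.9, 49.2, 54.3, 54.1 and 62.0 CPM, overlapping Control and below every Ag sample (log2 difference -0.94 ± 0.11, edgeR adjusted p = 6.09e-05). ech-7 in SiO2 was at 96.5, 61.5, 94.3, 107 and 86.3 CPM, likewise below every Ag sample and overlapping Control (log2 difference -0.91 ± 0.20, edgeR adjusted p = 0.0127). These calls and that of acdh-2 held in every alternative.

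acdh-6, an acyl-CoA dehydrogenase family member, was called only in this comparison, at 18.5, 12.5, 13.2, 11.0 and 13.6 CPM in SiO2 against 7.15, 8.62, 3.53, 6.61 and 9.29 CPM in Ag (log2 difference 0.96 ± 0.22, edgeR adjusted p = 0.0209). The groups did not overlap, and Control, at 6.79 to 13.7 CPM, overlapped both. acox-1.5 was 1.94-fold higher in SiO2 than in Ag (edgeR adjusted p = 0.0246), with Ag 8 inside the SiO2 range, and without Ag 8 the log2 difference was 1.34 (edgeR adjusted p = 1.48e-05). acs-7, which attaches side groups to ascarosides, was at 36.8 to 46.1 CPM in SiO2 and 49.6 to 55.6 CPM in Ag (log2 difference -0.34 ± 0.09, edgeR adjusted p = 0.0465), and this call was lost when any of 12 samples was left out, all but Control 4, SiO2 13 and SiO2 14 (0.0509 to 0.127), and also by scaling to library size alone, by testing every gene with at least 1 count and by fitting both exposures without Control (0.0513 to 0.0884). The call of acdh-6 was lost without Ag 9 or SiO2 11 (0.0549 to 0.0716) and that of acox-1.5 without Ag 9 or SiO2 13 (0.0536 to 0.0655). Leaving out Ag 8 and SiO2 14 together, an alternative chosen after seeing the data, retained all 7 calls and added acs-13, a synthetase gene named here after its values were seen. The fold changes of acs-2, acdh-1, acs-19 and hacd-1 had higher estimates in Ag than in SiO2, but the difference between the exposures did not pass the test for any of these 4 genes (edgeR adjusted p = 0.148, 0.352, 0.263 and 0.1).

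**Figure D4:**
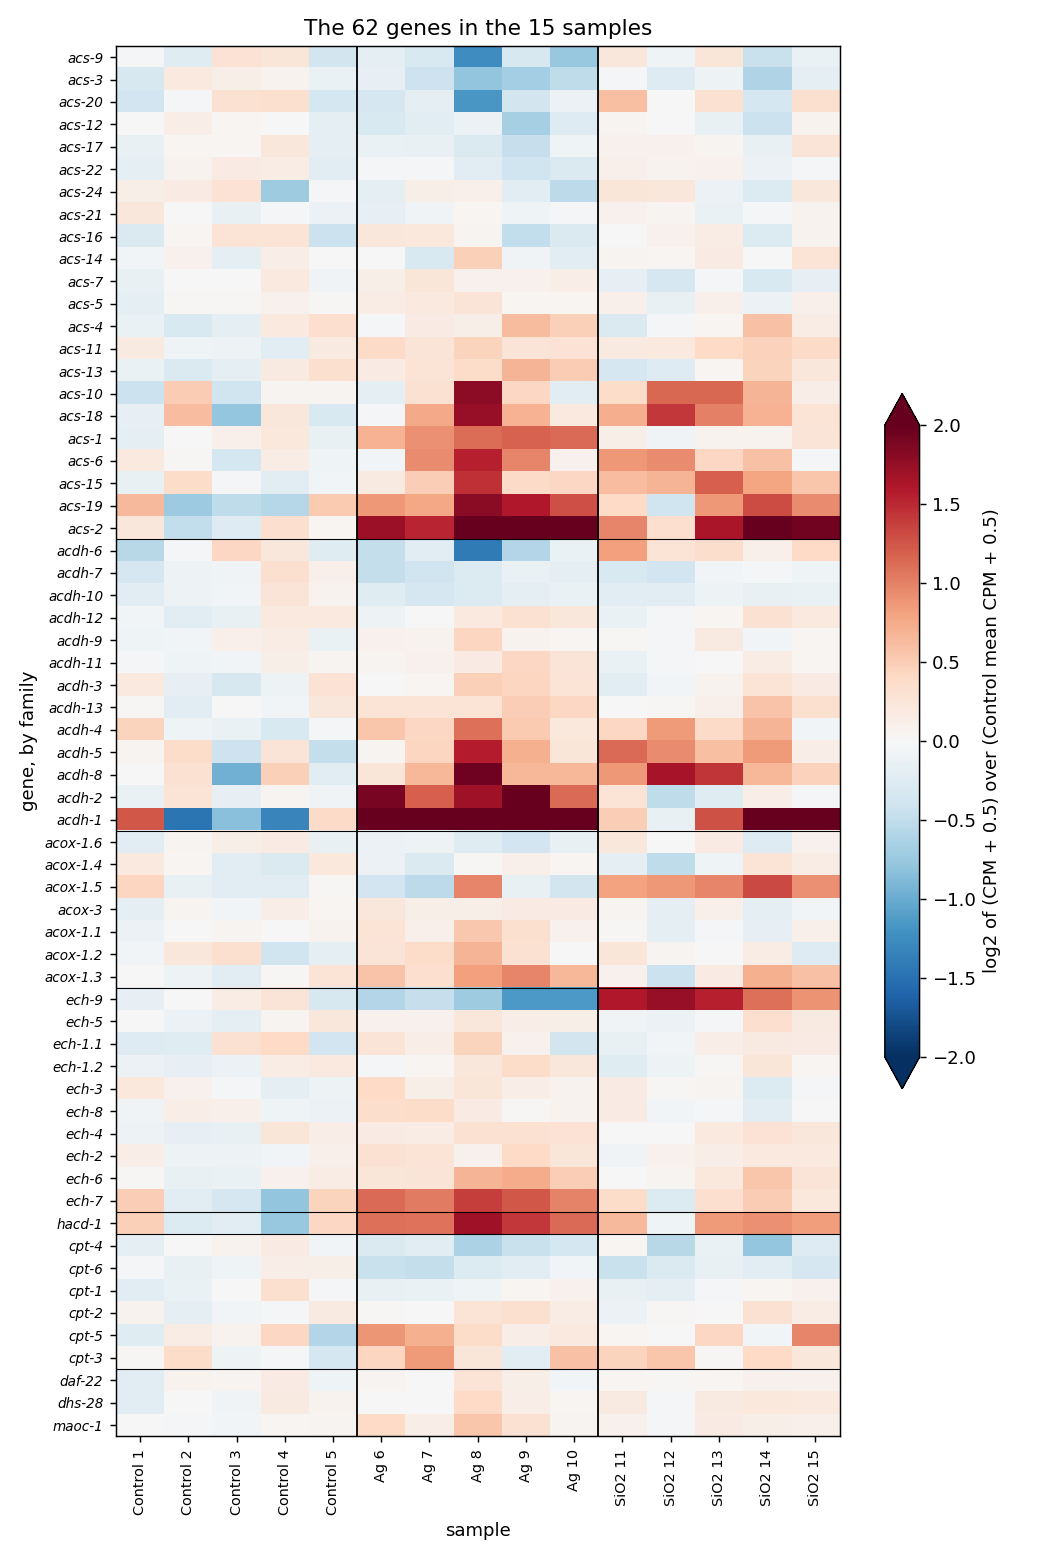
The 62 genes by family (rows) in the 15 samples (columns), coloured by log2 of (CPM + 0.5) over (Control mean CPM + 0.5), with the colours saturated at 2 in either direction. acs-2, acdh-1 and acdh-2 are red in all 5 Ag samples, ech-9 is blue in Ag and red in SiO2, and Ag 8 is the deepest red Ag column for the low-level genes acs-15 and acdh-8.

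ACDH-1 and ECH-6 belong to the propionate shunt, a route that breaks down propionate without vitamin B12 and goes on through HACH-1, HPHD-1 and ALH-8. In Ag, besides acdh-1 and ech-6, hach-1, the hydrolase of the route, rose from a Control range of 44.6 to 62.8 CPM to an Ag range of 59.4 to 86.0 CPM (log2 fold change 0.42 ± 0.12, edgeR adjusted p = 0.0469). hphd-1, which encodes the dehydrogenase after it, rose from 64.5 ± 5.70 CPM in Control to 99.1 ± 29.2 CPM in Ag (log2 fold change 0.62 ± 0.17, edgeR adjusted p = 0.0374). Both overlapped Control through Ag samples of low value, and both calls were lost when any of 7 samples was left out (Control 1, 2, 3 and 4 and Ag 8, 9 and 10, 0.0604 to 0.119). The call of hach-1 was also lost with RLE scaling, with the Kallisto estimates and in a fit of all 15 samples (0.0502 to 0.0543). alh-8, the last gene of the shunt, had a log2 difference of -0.20 ± 0.13 (edgeR adjusted p = 0.319). Of the canonical B12-dependent route, pcca-1, pccb-1, mce-1, mmcm-1 and mmaa-1 were all not called, with log2 differences of -0.26, -0.10, -0.20, 0.06 and 0.36. The edgeR adjusted p was 0.0524 for mmaa-1, close to the 0.0469 of hach-1, and 0.0969 for pcca-1. In SiO2 none of the 5 shunt genes passed the edgeR quasi-likelihood test. The nearest were acdh-1 (edgeR adjusted p = 0.0932), which passed the likelihood ratio test as given above, and hphd-1, with a log2 difference of 0.46 ± 0.15 (edgeR adjusted p = 0.125).

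**Figure D5:**
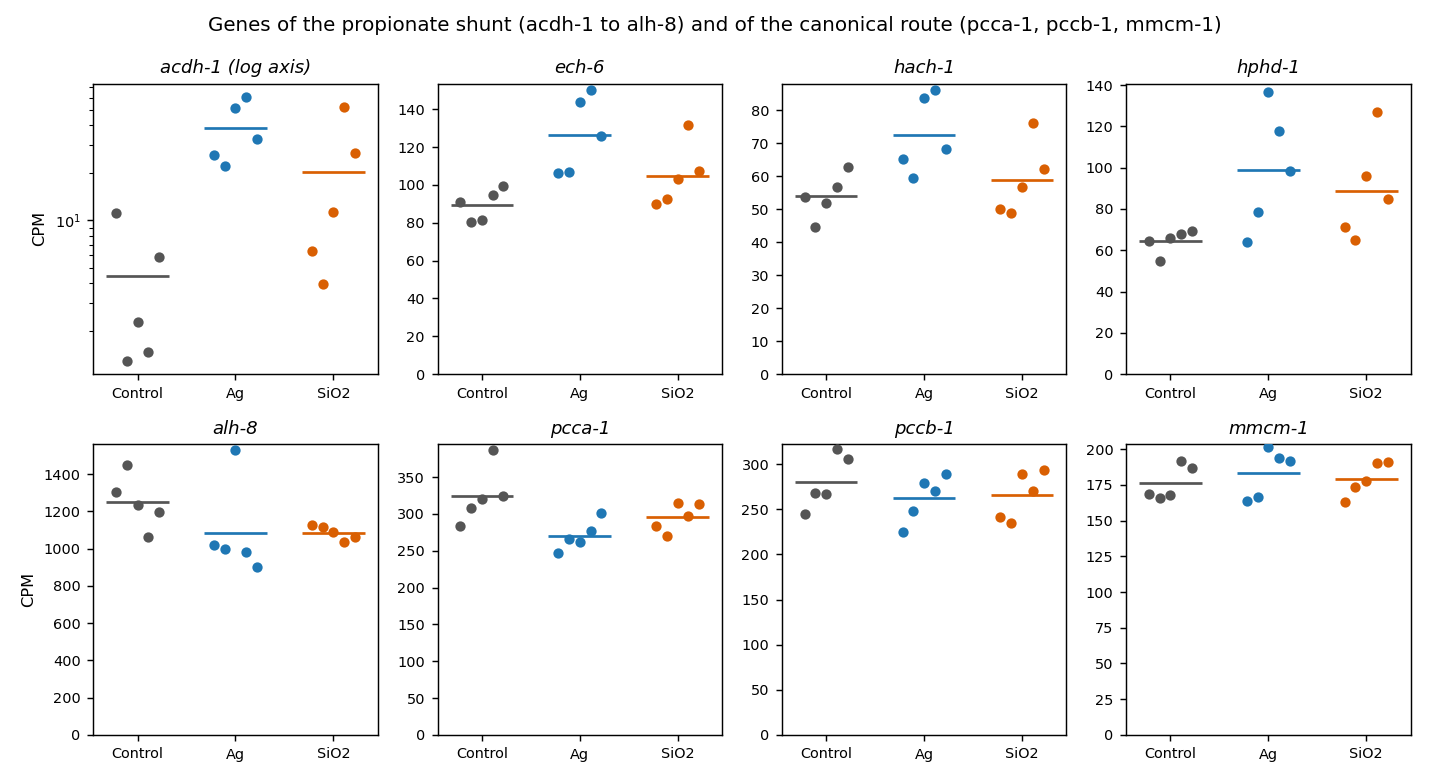
Level in CPM per sample of 5 genes of the propionate shunt (acdh-1, ech-6, hach-1, hphd-1, alh-8) and 3 of the canonical route (pcca-1, pccb-1, mmcm-1), with the group mean as a line, on linear axes from 0 except acdh-1 (log axis). The first 4 shunt genes and mmcm-1 have their Ag mean above the Control mean, while alh-8, pcca-1 and pccb-1 have it below. mce-1 and mmaa-1 of the canonical route are not shown.

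In the list of 30 related genes outside the families (other oxidation enzymes, propionate breakdown, regulators, peroxisomal import and transport), 6 rose and 0 fell in Ag by edgeR (20.0% and 0%, beside 4.35% and 3.41% of all genes), with 9 higher and 2 lower at an unadjusted p under 0.05. The list was chosen with earlier results of these data known, so these shares are not a test of it. The share of all genes at the unadjusted threshold, or called in the alternatives that follow, is not given. DESeq2 called 0 of the 30 lower, and the likelihood ratio test 0. The number higher was 1 without Control 2 or without Control 3, 3 without Control 4, Ag 8, Ag 9 or Ag 10, and 9 with DESeq2, the likelihood ratio test or edgeR's default gene filter, and 1 gene was lower without Ag 8. Besides hach-1 and hphd-1, the 6 that rose were the mitochondrial thiolase kat-1 (0.50 ± 0.11 on the log2 scale, edgeR adjusted p = 0.017), the malonyl-CoA decarboxylase mlcd-1 (0.47 ± 0.09, 0.0105), the shunt regulator nhr-68 (0.41 ± 0.11, 0.0437) and the ABC transporter pmp-5 (0.60 ± 0.13, 0.0168). The calls of kat-1 and pmp-5 were lost without Control 2 or Control 3 (0.0506 to 0.0595), and that of nhr-68 when any of 8 samples was left out, all but Control 1 and Ag 6 (0.0629 to 0.104), or with scaling to library size alone (0.0505). nhr-10, the partner of nhr-68, had a log2 difference of -0.18 ± 0.10 (edgeR adjusted p = 0.221).

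In SiO2 the ABC transporter pmp-1 was the gene of this list that rose, from a Control range of 56.6 to 83.6 CPM to a SiO2 range of 99.2 to 113 CPM, without overlap (log2 fold change 0.69 ± 0.11, edgeR adjusted p = 0.00231), and in Ag it was at 52.1 to 106 CPM, with Ag 8 the highest. Between the exposures pmp-1 was higher in SiO2 (0.66 ± 0.16, edgeR adjusted p = 0.0247) and sbp-1, the worm SREBP, a transcription factor of lipid synthesis, was lower (-0.40 ± 0.10, edgeR adjusted p = 0.0335). These calls were lost without Ag 9, SiO2 11 or SiO2 13, for sbp-1 also without Ag 8 or SiO2 12 (0.0612 to 0.0768). That of pmp-1 was lost with the Kallisto estimates (0.0534), and that of sbp-1 in a fit of both exposures without Control (0.0734) and without Ag 8 and SiO2 14 together (0.0551). Against Control, sbp-1 had a log2 difference of 0.33 ± 0.10 in Ag, without overlap (edgeR adjusted p = 0.0519). In SiO2 that difference was -0.07 ± 0.09 (edgeR adjusted p = 0.822). The likelihood ratio test (adjusted p = 0.0296) and DESeq2 (0.011) called sbp-1 higher in Ag.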

How the data were processed

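RNA of 15 whole-worm samples, 5 per group, was sequenced as single-end reads. The authors checked the reads with FastQC 0.11.3, trimmed them with Trim Galore 0.4.5, mapped them with HISAT2 2.1.0 against the genome build WBcel235, sorted them with SAMtools 1.7 and deposited raw read counts per gene, made with HTSeq 0.9.1 in intersection-strict mode (16560734 to 24296570 per sample). The strand setting is not given in the sources used here. A further deposited table holds estimated counts from Kallisto and tximport (versions not given in the sources used here), used rounded to whole numbers and only as an alternative.

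Genes were matched by WormBase symbol, which 43818 of the 46778 gene identifiers had, and coordinates were taken from Ensembl release 115 of the same build. The paper counted reads with an earlier Ensembl release, so its gene models may differ from the coordinates, exon lengths and overlaps given here. Tests used edgeR 4.0.16 (R 4.3.3): TMM factors computed within each fit, genes whose counts summed to 3 or more in the samples fitted, quasi-likelihood F test, Benjamini-Hochberg adjustment over all genes tested, threshold 0.05. Each exposure was fitted with Control alone (10 samples), and SiO2 against Ag in a fit of all 15. Standard errors were taken as the log2 fold change divided by the square root of F. CPM were computed on TMM-scaled library sizes of all 15 samples (factors 0.941 to 1.04). Exact permutation tests enumerated 252 arrangements, two-sided. The edgeR procedure was tested on simulated data first.

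Genes are named where called in any comparison, where highest of their family in mean CPM, or where part of the propionate shunt, the fasting response or ascaroside shortening. The members, the lists and this rule were chosen with earlier results of these data known. Alternatives were a likelihood ratio test with tagwise dispersion, DESeq2 1.42.0, other gene filters, other scalings, Kallisto estimates, another set of samples in the fit, and leaving out each sample. Precision is limited by counting for genes under about 1 CPM.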

Additional observations from a re-analysis of the deposited data

Results flagged for a closer look

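In 72 groups of 5 values (24 named genes in 3 groups), 5 held a sample far from the others by Dixon's test at the 95% level, where chance would give about 3.6. Ag 8 accounted for 3 of them: acox-1.5 was at 143 CPM there against 50.3 to 65.2 CPM in the other Ag samples, acdh-8 at 8.09 CPM against 2.13 to 3.03, and acs-15 at 1.93 CPM against 0.498 to 0.745. acs-15 was at 0.642 CPM in Control 2, against 0.258 to 0.368 CPM in the other Control samples. dhs-28 was at 139 CPM in SiO2 12, against 159 to 163 CPM in the other SiO2 samples.

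The effects of the 2 exposures differed, by the direct test of SiO2 against Ag, for 7 genes. The log2 difference (SiO2 minus Ag) was 2.24 for ech-9, 0.96 for acox-1.5 and 0.96 for acdh-6, and it was -2.995 for acdh-2, -0.94 for acs-1, -0.91 for ech-7 and -0.34 for acs-7.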

How the results depend on the processing

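Of 33 calls of named genes, list genes included, 17 held in every alternative, 16 were lost in at least 1, and 0 changed direction. The counts below are given without the share of all genes called in each alternative, so they cannot be set against the background. In Ag against Control, the number of genes higher was 9, 16 with the likelihood ratio test and 19 with DESeq2, and the number lower was 3. Leaving out single samples gave 7 to 12 higher and 1 to 3 lower. In SiO2 against Control, the number higher was 5, 10 with the likelihood ratio test, 8 with DESeq2 and 3 in a fit of all 15 samples, and 3 to 9 without single samples, while 0 were lower in every alternative. In SiO2 against Ag, 1 to 5 genes were higher and 3 to 5 lower without single samples. In the list of 30 related genes, 1 to 7 were higher and 0 to 1 lower in Ag without single samples. Apart from single samples, the fit of all 15 samples ended the calls of cpt-4 and hach-1 in Ag and of acdh-8 and acs-15 in SiO2. RLE scaling ended those of cpt-4 and hach-1, and scaling by library size alone those of nhr-68 in Ag, acdh-8 in SiO2 and acs-7 between the exposures. Kallisto estimates ended those of hach-1 in Ag and pmp-1 between the exposures. Between the exposures, leaving Control out of the fit ended those of acs-7 and sbp-1, testing every gene with at least 1 count that of acs-7, and leaving out Ag 8 and SiO2 14 together that of sbp-1.

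Differences near 0, called in no alternative, changed sign. Scaling by library size alone gave -0.0129 for acox-1.5 and -0.000195 for pmp-1 in Ag, and -0.00506 for ech-1.2 in SiO2. Without single samples the ranges were -0.35 to 0.14 for acox-1.5, -0.111 to 0.0469 for cpt-1 and -0.18 to 0.12 for pmp-1 in Ag, and -0.52 to 0.11 for acdh-2, -0.107 to 0.0419 for cpt-1, -0.00499 to 0.0931 for daf-22 and -0.0726 to 0.0571 for ech-1.2 in SiO2. The cause was not tested. DESeq2 gave no adjusted p for acdh-2 in SiO2 against Control. No paired analysis was possible because replicates 1 to 5, 6 to 10 and 11 to 15 carry different numbers.

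The fold changes of acdh-2 and acs-15 rest on fewer than 60 reads per sample. Overlapping genes on opposite strands and the acox-1.1 to acox-1.4 paralogs can exchange or lose reads.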

Other observations

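Some further low-level genes of these families, named in no comparison, also peaked in Ag 8. acs-18, acs-10, acs-6 and acdh-5, chosen after their values were seen, stood in that sample, the highest of the Ag samples, at 6.55, 8.47, 4.49 and 2.76 CPM, against Control ranges of 0.737 to 2.73, 1.44 to 3.21, 0.829 to 1.44 and 0.289 to 0.910 CPM. In SiO2 their ranges were 2.04 to 5.10, 2.34 to 5.29, 1.14 to 2.77 and 0.697 to 1.91 CPM, and none of these genes passed the edgeR quasi-likelihood test with all samples in either exposure. Without SiO2 15 that test called all 4 in SiO2. The likelihood ratio test and DESeq2 each called acs-6 in Ag and acs-18, acs-10 and acdh-5 in SiO2. Other genes averaging under 5 CPM over all samples were mixed. acdh-4 and ech-1.1 were also highest of Ag in Ag 8, while acs-24, cpt-3 and acdh-2 were highest in another Ag sample. acs-9 was lowest of Ag in Ag 8, at 0.899 CPM.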
